A study of Mus musculus with 15 samples.

Results

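The corticotropin-releasing hormone (CRH) system was taken here as 4 genes of the 32285 in the deposited tables: the ligand Crh, the receptors Crhr1 and Crhr2, and the binding protein Crhbp. They were chosen by name, and all 4 were counted in every library. Single-nuclei RNA sequencing (snRNA-seq) covered micropunches enriched for the dorsal hippocampal formation (dHF) of 15 adult female C57BL6/J mice, 1 library a mouse. NP mice (n = 6) were age-matched virgin, nulliparous females. Control RE mice (n = 4; RE, reproductive experience) had been bred, had given birth and had raised pups to weaning, and stress RE mice (n = 5) had done the same with limited nesting material and daily removal of the litter during the later part of lactation. The labels put NP mice 27 and 31 and stress RE mouse 70 in batch 1, with no control RE mouse, and 2 mice of each group in each of batches 2 and 3. The methods describe processing batches in which every group was represented, which labelled batch 1 does not match, so the labels' batches are used here only as labelled.

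CRH is the neuropeptide that starts the hormonal stress response from the hypothalamus, and it is also made by local inhibitory neurons in cortex and hippocampus. Crhr1 and Crhr2 encode G protein-coupled receptors that mostly raise cyclic AMP. CRH binds the first with high affinity, whereas the urocortins are the preferred ligands of the second. Crhbp encodes a secreted protein that holds CRH and urocortin 1 away from the receptors.

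On GRCm38, Crh (ENSMUSG00000049796) lies on the minus strand at chr3:19693401-19695396, Crhr1 (ENSMUSG00000018634) on the plus strand at chr11:104132855-104175523, Crhr2 (ENSMUSG00000003476) on the minus strand at chr6:55090049-55133016 and Crhbp (ENSMUSG00000021680) on the minus strand at chr13:95431371-95444924. All 4 are protein-coding, and the annotation places no other gene over them.

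After filters and doublet removal 123907 nuclei were kept of 134019 barcodes, and 113326 (91.5%) fell in 29 classes named from marker genes. A class name stands for clusters that are "like" that cell type by markers. Cluster 7 is given by its number, because its 10 leading genes held 0 of the CA3 pyramidal neuron markers that named it and 1 marker of cortical layer neurons. Clusters 5, 8, 9, 12 and 15, in the thalamic, oligodendrocyte, astrocyte and microglia classes, also had 0 of their own markers there, but 0 of any other list. The punches also held thalamic, habenular, choroid plexus and striatal nuclei, which lie outside the dHF. Libraries held 5789 to 12738 barcodes, a median of 3993 to 8754 unique molecular identifiers (UMIs) per barcode and 40602584 to 96211264 UMIs in all. Any pair of libraries shared 6 to 47 barcode sequences, at most 0.461% of the smaller library. Levels are counts-per-million values (CPM, scaled to all UMIs) of the summed nuclei of a class in 1 mouse, and a mouse is used where it gave 10 or more such nuclei. Because the clusters were made from the same nuclei, the order of levels over classes is a description without a test. Crh, Crhr1, Crhr2 and Crhbp were kept out of the genes used to cluster.

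Crh was a gene of Vip interneurons. These inhibitory neurons, marked by vasoactive intestinal peptide, mainly contact other interneurons, and they held 30.1 CPM ± 24.6 of Crh (SD, n = 15). The next classes were Sst interneurons (somatostatin, dendrite-targeting cells) at 3.55 CPM ± 3.99 and Cck interneurons (cholecystokinin) at 1.58 CPM ± 2.56, each n = 15. The gap between Vip and Sst interneurons was 26.6 CPM, larger than the SD of either class, although their ranges over mice overlapped. Sst and Cck interneurons did not differ beyond their spread. Vip interneurons had the highest level of the named classes in 12 of 15 mice.

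The gene was sparse. Of the 217 Crh UMIs in all kept nuclei, 38.7% lay in the 338 Vip nuclei and 15.2% in the 556 Sst nuclei. A Crh UMI was found in 54 of 338 Vip nuclei (15.98%, 95% Wilson interval 12.5 to 20.3%, median depth 8349 UMIs) and in 11 of 29852 oligodendrocyte nuclei (0.0368%, interval 0.0206 to 0.0660%, median depth 2494 UMIs), a cell type that should lack it. For thinned shares, each nucleus with at least 1000 UMIs was thinned to 1000 UMIs and shallower nuclei were left out. Of the nuclei so thinned, 4.75% of Vip and 0.0170% of oligodendrocyte nuclei had a Crh UMI. In Sst nuclei the thinned share rested on 1 nucleus, 0.180% with an interval of 0.0318 to 1.01%, which overlapped that of oligodendrocytes (0.00727 to 0.0398%). Of the 32 nuclei with at least 2 Crh UMIs, 17 were Vip nuclei, 8 were Sst nuclei and 3 were Cck nuclei.

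**Figure D1:**
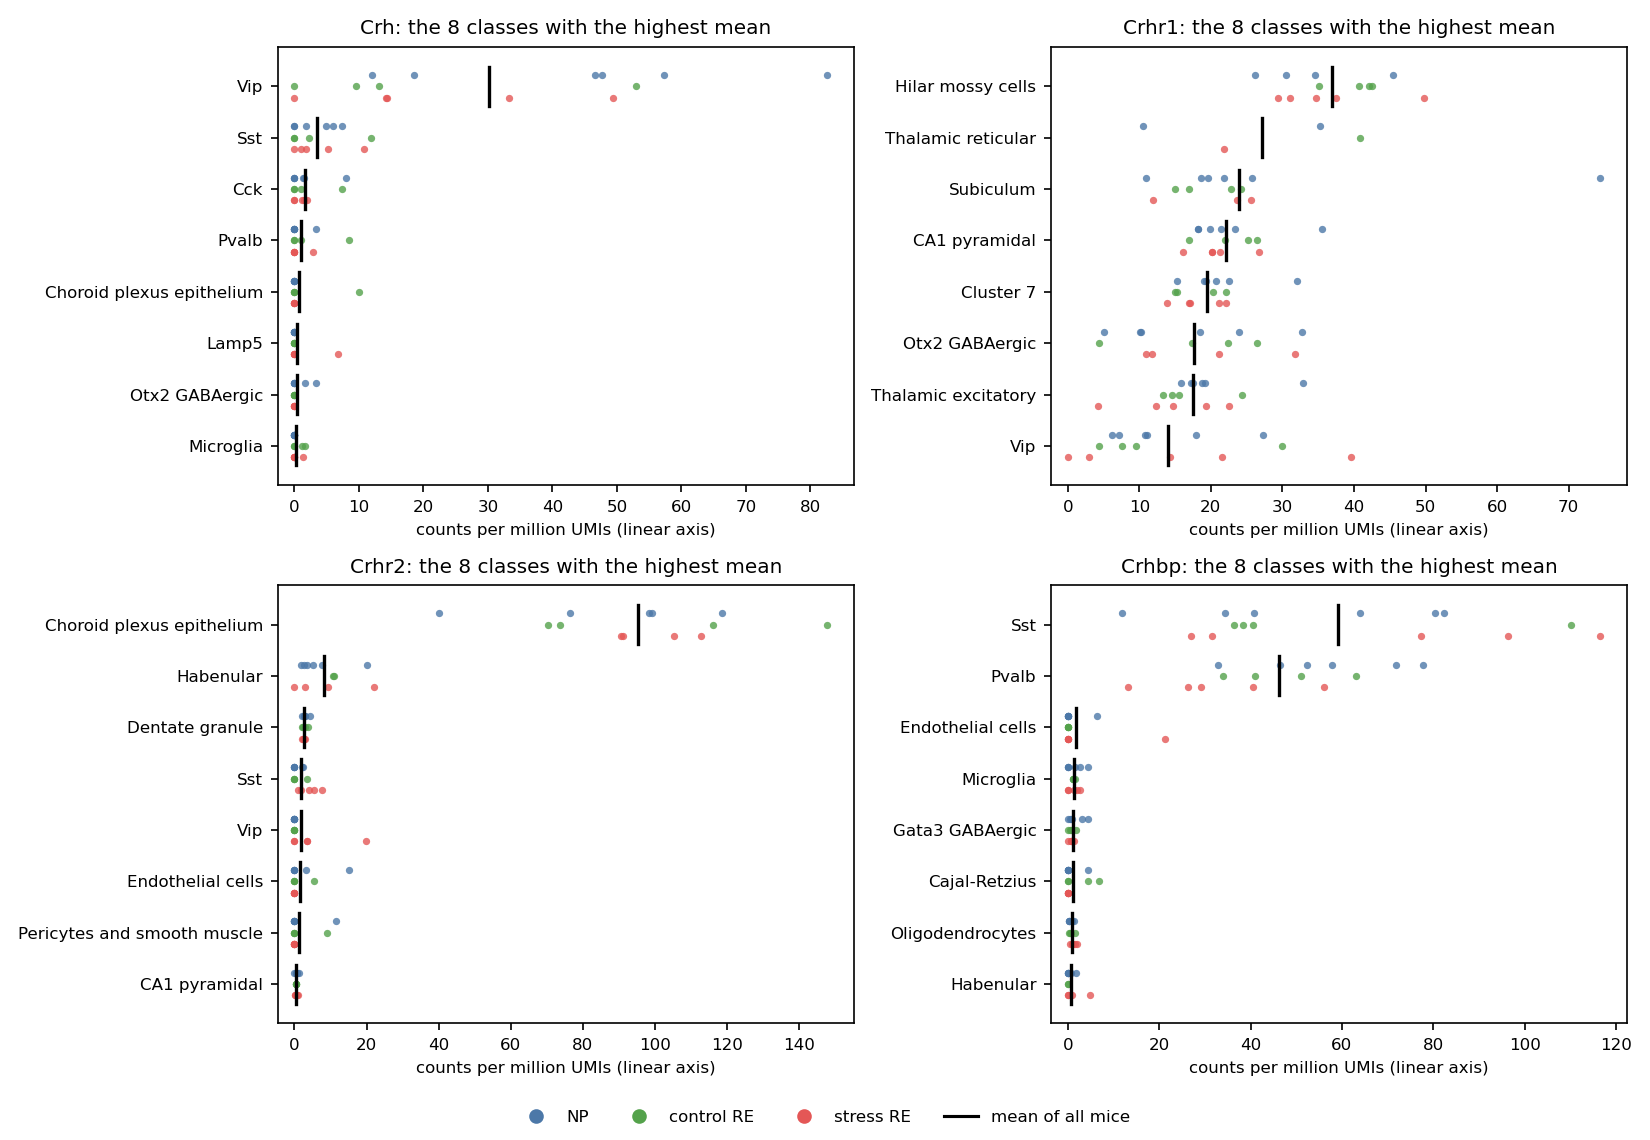
Level of each of the 4 genes in the 8 classes with the highest mean, in CPM on a linear axis; each point is a mouse coloured by group, and the black line is the mean over the mice used. Crh stands out in Vip interneurons (30.1 CPM), Crhr2 in choroid plexus epithelium (95.4 CPM) and Crhbp in Sst and Pvalb interneurons (59.2 and 46.2 CPM), whereas Crhr1 falls off slowly from hilar mossy cells (36.9 CPM).

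Crh in Vip interneurons varied widely within every group. In NP mice the lowest value was 12.0 CPM, the median 47.1 CPM and the highest 82.6 CPM. Control RE mice had 52.9, 13.1, 9.57 and 0 CPM, and stress RE mice had 49.5, 33.3, 14.4, 14.3 and 0 CPM. The groups overlapped: the highest control RE and the highest stress RE mouse both lay above the NP median. Both zeros were shallow: control RE mouse 87 had 26 Vip nuclei, in which a count of 0 allows up to 15.0 CPM, and stress RE mouse 43 had 11, which allow up to 27.2 CPM.

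Control RE minus NP came to -25.2 CPM (group means 18.9 CPM ± 23.3 and 44.1 CPM ± 25.9), with p = 0.133 by a two-sided exact permutation test over mice that can go no lower than 0.00952. Stress RE minus NP was -21.8 CPM (exact permutation p = 0.152, lowest possible 0.00433), and stress RE minus control RE was 3.39 CPM (exact permutation p = 0.810, lowest possible 0.0159). These p-values are unadjusted. Within batches, control RE minus NP was -1.29 CPM in batch 2 and -46.0 CPM in batch 3. For stress RE minus NP the value was -33.0, -8.70 and -27.8 CPM in batches 1, 2 and 3. Stress RE minus control RE changed sign, at -7.41 CPM in batch 2 and 18.2 CPM in batch 3. The log2 ratio of control RE over NP was -1.22 with all mice. Leaving out 1 mouse in turn, it ran from -2.55 to -0.81 over 10 fits. The lowest value came without control RE mouse 72, the one with 52.9 CPM. Its unadjusted exact permutation p of 0.0476 was the smallest of the 10. Leaving out the highest mouse of a group lowers that group's mean by construction, so no conclusion is drawn from this p.

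In Sst interneurons Crh counts were near the floor in most mice, with group means of 3.35 CPM ± 3.18 in NP (n = 6), 3.55 CPM ± 5.67 in control RE (n = 4) and 3.77 CPM ± 4.36 in stress RE (n = 5). Exact permutation p-values for the 3 differences were 0.866 to 0.968. Control RE minus NP was -5.55 CPM within batch 2 and 5.01 CPM within batch 3, while the stress RE mice differed from control RE by 6.80 and -5.02 CPM. Against NP, stress RE came to -1.33, 1.26 and -0.00895 CPM in batches 1, 2 and 3. The Sst subclusters differed. Subcluster 16 (165 nuclei, led by Sst, Crhbp, Eya1, Sox6 and Npy) held 14.0 CPM ± 9.40 of Crh over 7 mice, and subcluster 15 (391 nuclei) held 1.35 CPM ± 2.56 over 15 mice. The former was higher in 7 of 7 mice with at least 10 nuclei of both. These were NP mouse 27, control RE mice 66 and 72, and stress RE mice 70, 75, 77 and 90.

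Crhr1 had no single home. Its highest mean among the named classes was in hilar mossy cells, excitatory neurons of the dentate hilus, at 36.9 CPM ± 6.90 (n = 13), and this class ranked first in 10 mice. Thalamic reticular neurons followed at 27.1 CPM ± 13.7 (n = 4), then subiculum neurons, the output cells of the hippocampus, at 23.9 CPM ± 15.95 (n = 13). CA1 pyramidal neurons had 22.1 CPM ± 4.91, cluster 7 had 19.5 CPM ± 4.52 and thalamic excitatory neurons had 17.5 CPM ± 6.31, each n = 15. No neighbouring pair among the 8 highest classes differed beyond the larger SD of the pair.

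By number of molecules the receptor was spread over principal cells. Dentate granule neurons held 19.2% of its UMIs, thalamic excitatory neurons 15.97%, CA1 pyramidal neurons 14.8% and cluster 7 13.2%, whereas hilar mossy cells are few. The granule share came from many nuclei, as their mean of 7.66 CPM ± 1.68 (n = 15) lay below the 12.7 CPM over all nuclei. A Crhr1 UMI was seen in 175 of 374 mossy nuclei (46.8%, 95% Wilson interval 41.8 to 51.9%, median depth 20205 UMIs) and 0.405% of oligodendrocyte nuclei. Thinned to 1000 UMIs the shares were 4.56% and 0.157%.

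Levels also varied within classes. Of the 2 subiculum clusters, cluster 25 (545 nuclei, led by Gm6260, Gm2164, Rxfp1 and Fn1) held 33.3 CPM ± 17.0 of Crhr1 over 13 mice, while cluster 20 (442 nuclei, led by Vwc2l and Tshz2) held 0.784 CPM ± 1.48 over 11 mice. Cluster 25 was higher in 11 of 11 mice with enough nuclei of both. The 2 clusters of dentate granule neurons, the principal cells of the dentate gyrus, also differed. Cluster 0 (17304 nuclei) held 10.5 CPM ± 1.49 and cluster 2 (14291 nuclei) 4.11 CPM ± 0.818, with cluster 0 higher in 15 of 15 mice.

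Crhr1 in hilar mossy cells ran from 26.2 to 49.8 CPM over the mice used. The 4 NP mice with enough nuclei had 45.4, 34.6, 30.6 and 26.2 CPM, the control RE mice 42.5, 42.1, 40.7 and 35.1 CPM, and the stress RE mice 49.8, 37.4, 34.7, 31.1 and 29.3 CPM. All 3 groups overlapped. The NP mouse with 45.4 CPM was of batch 1, which had no control RE mouse. The log2 fold change was 0.26 (SE 0.22, edgeR adjusted p = 0.985) for control RE minus NP, -0.18 (SE 0.21, adjusted p = 1.00) for stress RE minus control RE and 0.08 (SE 0.22, adjusted p = 1.00) for stress RE minus NP. Within batches 2 and 3, control RE minus NP was 13.2 and 4.03 CPM while stress RE differed from control RE by -5.55 and -8.39 CPM. Against NP, stress RE came to 4.37, 7.67 and -4.36 CPM in batches 1, 2 and 3. Batches 1 and 3 each had 1 NP mouse with enough nuclei, and batch 1 had 1 stress RE mouse.

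In subiculum neurons 1 mouse stood apart. NP mouse 31 had 74.4 CPM of Crhr1, from 34 UMIs in 38 nuclei, and the other NP mice had 11.0 to 25.7 CPM. Control RE mice had 24.2, 22.8, 16.9 and 14.9 CPM, and the 3 stress RE mice with enough nuclei had 25.6, 23.7 and 11.9 CPM. Cluster 25 made up 81.6% of the subiculum nuclei of NP mouse 31 and 38.4 to 68.4% in the other mice with at least 10 such nuclei. The part of this share in the high value was not tested. Control RE minus NP gave a log2 fold change of -0.36 (SE 0.37, edgeR adjusted p = 1.00), but the difference was positive within batch 2 (0.641 CPM) and within batch 3 (3.28 CPM). The 2 NP mice of batch 1, mouse 31 among them, had a mean of 50.1 CPM. Stress RE minus NP gave -0.32 (SE 0.37, adjusted p = 1.00), with -26.4 CPM within batch 1 and 3.43 CPM within batch 2. Stress RE minus control RE gave 0.04 (SE 0.41, adjusted p = 1.00), with 2.79 CPM within batch 2. Batch 3 had no stress RE mouse with enough nuclei.

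**Figure D2:**
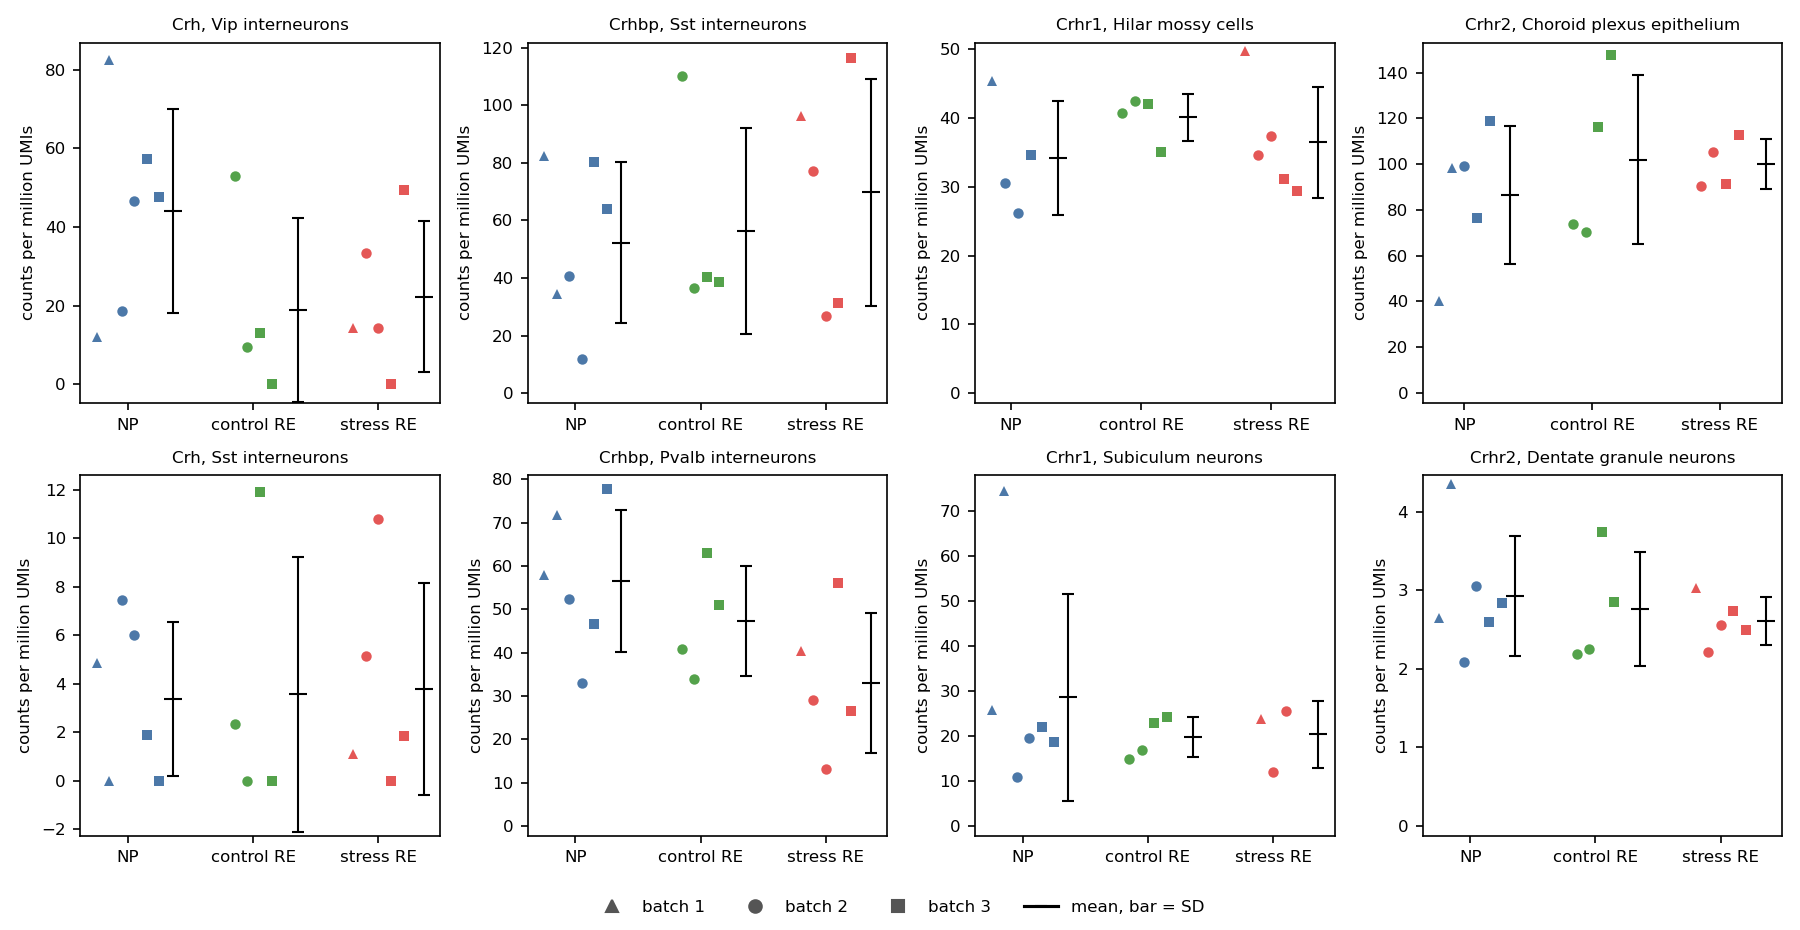
Level per mouse, in CPM on linear axes, of each gene in the 2 classes where it was highest among those testable in all comparisons, by group; the marker shape gives the batch and the black bar the mean with its SD. The 3 groups overlap in all 8 panels. NP mouse 31 is the single high point in subiculum neurons (74.4 CPM).

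Crhr1 moved with the labelled batch. Over all nuclei, the 3 mice of batch 1 had 15.2 to 20.4 CPM and the 12 mice of batches 2 and 3 had 9.91 to 14.9 CPM, with no overlap. Of the 20439 genes with a mean count of at least 10 a mouse, 4.03% also had all batch 1 mice above all others. In each of the 8 named classes with at least 10 Crhr1 counts a mouse the batch 1 mean was the higher, as in Otx2 GABAergic neurons (29.5 against 14.4 CPM) and cluster 7 (25.5 against 18.0 CPM). In subiculum neurons (41.3 against 18.7 CPM) the batch 1 mean rested largely on the 74.4 CPM of NP mouse 31. The other batch 1 mice had 25.7 and 23.7 CPM there, against 11.0 to 25.6 CPM in batches 2 and 3. Of the 6184 genes with as many counts in all 8 classes, 26.3% had the higher mean in batch 1 in every one. Of these classes the ranges parted in hilar mossy cells alone, at 45.4 and 49.8 CPM in 2 mice of batch 1 against 26.2 to 42.5 CPM in 11 mice, where 3.84% of genes did so. Cluster 0, which is the richer in Crhr1, held 57.5, 83.1 and 73.6% of granule nuclei in the batch 1 mice and 37.2 to 70.5% in the others. The batch 1 mice also had the fewest nuclei kept (5988, 6365 and 5466, against 7318 or more), and 6.23, 19.0 and 11.2% of their nuclei lay in unnamed cluster 1 (median 1283.5 UMIs), against 1.02 to 5.04% in the others. The part of these shares and numbers in the batch difference was not tested. Over all nuclei control RE minus NP in Crhr1 was -0.903 CPM within batch 2 and 2.20 CPM within batch 3.

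**Figure D3:**
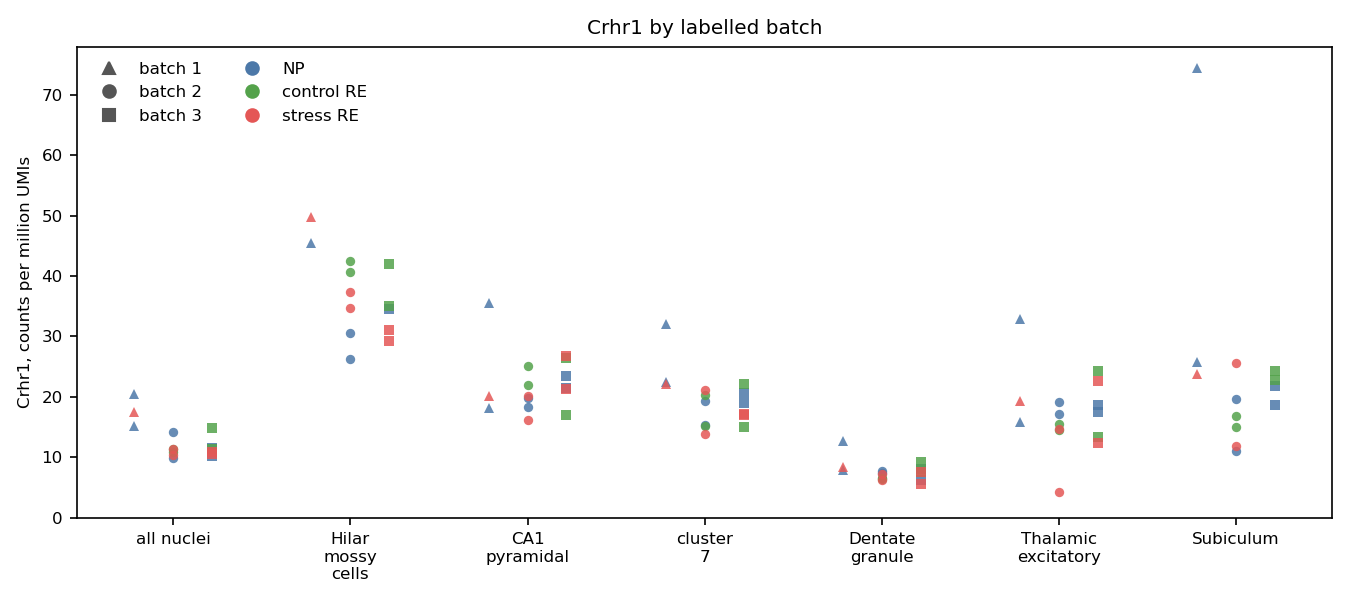
Crhr1 per mouse in CPM (linear axis) over all nuclei and in 6 classes; the 3 positions within a class and the marker shapes are batches 1, 2 and 3, and colours are groups. Batch 1 lies above the other batches over all nuclei and in hilar mossy cells.

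Crhr2 was a gene of choroid plexus epithelium, the cell layer that secretes cerebrospinal fluid, which lies outside the dHF. It held 95.4 CPM ± 26.9 (n = 13) there and ranked first in 13 of 13 mice. The next named class, habenular neurons, had 8.07 CPM ± 7.05 (n = 12), and the ranges of these classes did not overlap. Dentate granule neurons had 2.77 CPM ± 0.608 (n = 15), the third highest mean among the named classes, with habenular and granule neurons not separated beyond their spread. The unnamed GABAergic subcluster 20 (273 nuclei) had 6.86 CPM ± 5.93 over 3 mice, from 28 UMIs.

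Few molecules per nucleus in a large class made granule neurons the main holder of Crhr2 in the punch. They contained 51.9% of its 1608 UMIs, against 32.5% in choroid plexus. A Crhr2 UMI was found in 790 of 31595 granule nuclei (2.50%, 95% Wilson interval 2.33 to 2.68%), in 339 of 794 choroid plexus nuclei (42.7%, interval 39.3 to 46.2%) and in 0.0435% of oligodendrocyte nuclei. Thinned to 1000 UMIs these shares were 0.304%, 10.4% and 0.0170%. As for Crhr1, granule cluster 0 was the higher, at 3.33 CPM ± 0.676 against 2.01 CPM ± 0.538 in cluster 2 and in 14 of 15 mice. Sst subcluster 16 held 9.68 CPM ± 8.69 of Crhr2 over the same 7 mice as for Crh, and subcluster 15 held 0.243 CPM ± 0.702 over 15 mice. Subcluster 16 was the higher in 5 of 7 mice with enough nuclei of both.

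**Figure D4:**
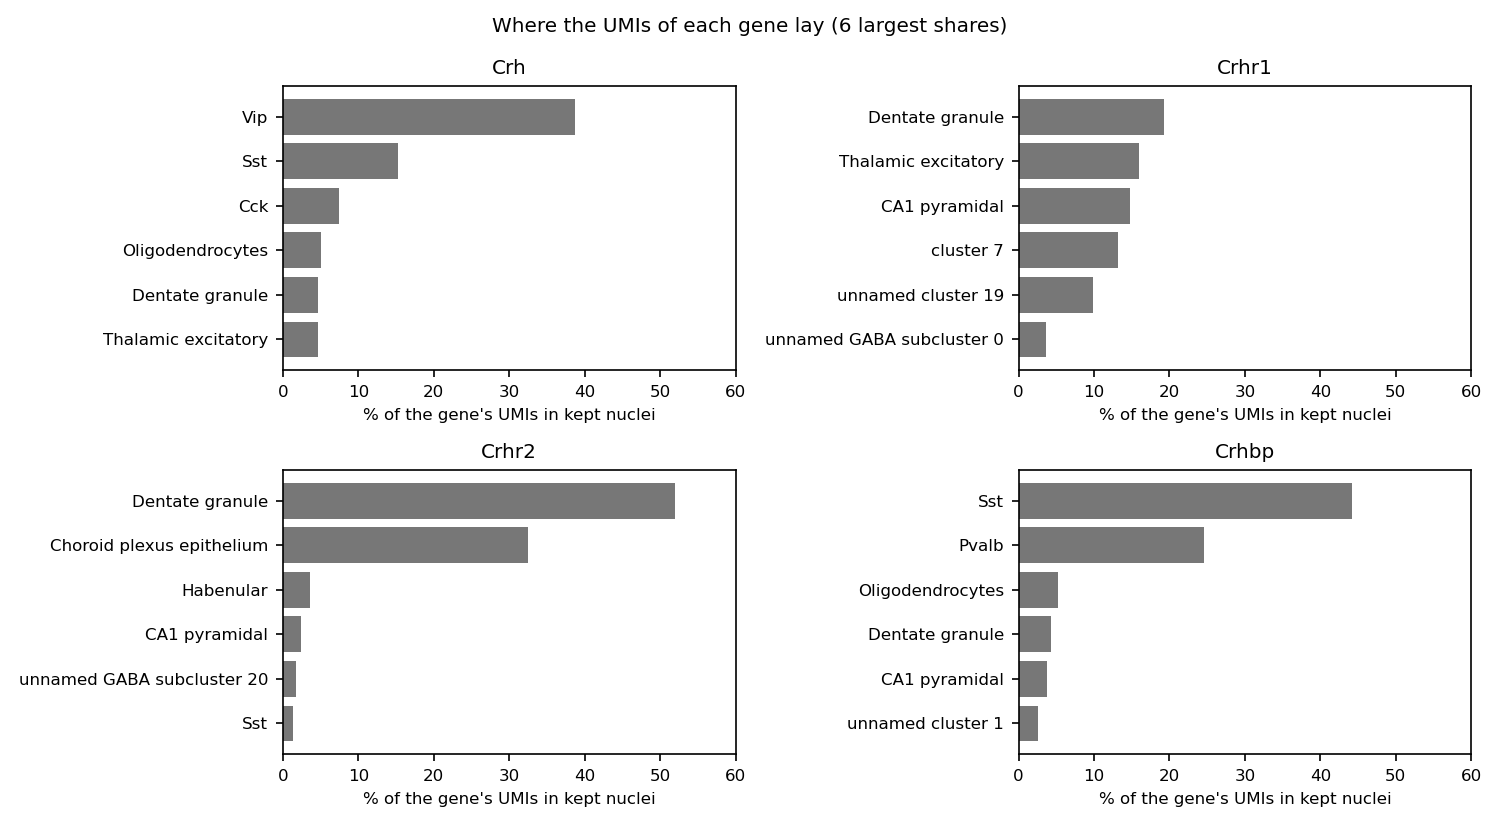
Share of each gene's UMIs, in percent of its UMIs in all kept nuclei, held by the 6 classes or unnamed clusters with the largest shares. Dentate granule neurons hold 51.9% of Crhr2 UMIs, Sst interneurons 44.1% of Crhbp UMIs and Vip interneurons 38.7% of Crh UMIs, while the largest share of Crhr1 is 19.2%.

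In choroid plexus the 5 NP mice with enough nuclei had 119, 99.2, 98.5, 76.3 and 40.1 CPM of Crhr2. Control RE mice had 148, 116, 73.8 and 70.2 CPM, and the 4 stress RE mice had 113, 105, 91.3 and 90.7 CPM. The stress RE values lay inside the ranges of both other groups. Log2 fold changes were 0.28 (SE 0.26) for control RE minus NP, -0.13 (SE 0.27) for stress RE minus control RE and 0.15 (SE 0.25) for stress RE minus NP, each with an edgeR adjusted p of 1.00. Leaving out 1 mouse in turn, control RE minus NP ran from 0.068 (without control RE mouse 87) to 0.45 (without NP mouse 73), and stress RE minus NP from 0.0078 (without NP mouse 27) to 0.34 (without NP mouse 73). Stress RE minus control RE was 0.10 without control RE mouse 87. Within batches control RE minus NP changed sign, at -27.1 CPM in batch 2 and 34.4 CPM in batch 3, and so did stress RE minus control RE (26.0 and -29.9 CPM) and stress RE minus NP (-1.17 and 4.47 CPM). Batch 2 had 1 NP mouse with enough nuclei.

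In granule neurons the spread was small. NP mice had 2.08 CPM at the lowest, 2.74 at the median and 4.35 at the highest, control RE mice 3.75, 2.85, 2.25 and 2.19 CPM, and stress RE mice 3.03, 2.74, 2.56, 2.50 and 2.21 CPM. The groups overlapped throughout. Log2 fold changes were -0.02 (SE 0.20) for control RE minus NP, -0.09 (SE 0.21) for stress RE minus control RE and -0.10 (SE 0.19) for stress RE minus NP, with edgeR adjusted p-values of 0.999, 1.00 and 1.00. Within batches 2 and 3, control RE minus NP was -0.352 and 0.587 CPM while stress RE differed from control RE by 0.168 and -0.679 CPM. In batches 1, 2 and 3, stress RE minus NP was -0.465, -0.184 and -0.0925 CPM.

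Among the named classes, Crhbp was highest in Sst and Pvalb interneurons. Sst interneurons had 59.2 CPM ± 32.6 and Pvalb interneurons, the fast-spiking cells that target the soma of principal neurons, had 46.2 CPM ± 17.7, each n = 15. An unnamed GABAergic subcluster, number 18, with 48 nuclei and Crhbp among its leading genes, held 65.9 CPM from 31 UMIs summed over all mice. The order between Sst and Pvalb interneurons was not separated beyond the spread, since the former ranked first in 8 mice and the latter in 7. The third class, endothelial cells, had 1.84 CPM ± 5.60, which came from 4 UMIs. Sst interneurons held 44.1% and Pvalb interneurons 24.6% of the 1332 Crhbp UMIs.

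A Crhbp UMI was found in 186 of 556 Sst nuclei (33.5%, 95% Wilson interval 29.7 to 37.5%) and 146 of 432 Pvalb nuclei (33.8%, interval 29.5 to 38.4%), against 0.221% of oligodendrocyte nuclei. Thinned to 1000 UMIs the shares were 5.76, 3.47 and 0.0919%. Vip nuclei, the main Crh class, had a Crhbp UMI in 0 of 338, which allows a share of up to 0.888% of nuclei with a UMI. In the same class 31 nuclei had a Crhr1 UMI, and 13 of the 54 with a Crh UMI were among them. In Sst nuclei, 8 of the 19 with Crh also had Crhbp. Free RNA and depth both bear on such counts.

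Sst subcluster 16 was also the richer in Crhbp, at 114 CPM ± 44.4 over the same 7 mice against 46.7 CPM ± 30.8 in subcluster 15 over 15 mice. It was higher in 6 of 7 mice with enough nuclei of both. For Crhr1 the order was the other way, at 0.985 CPM ± 1.72 and 5.23 CPM ± 3.47.

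Crhbp in Pvalb interneurons gave the smallest unadjusted p of the 4 genes. NP mice had 32.9 CPM at the lowest, 55.1 at the median and 77.7 at the highest. Control RE mice had 63.05, 51.1, 40.9 and 34.0 CPM, and stress RE mice had 56.0, 40.4, 29.1, 26.4 and 13.1 CPM. Stress RE held the 3 lowest mice, but its highest mouse lay above the NP median. Stress RE minus NP was -0.64 on the log2 scale (SE 0.29; group means 33.0 CPM ± 16.1 and 56.5 CPM ± 16.5). The unadjusted edgeR p was 0.0389 and the adjusted p 0.912, so the difference did not pass the test. Of all 6861 genes tested in that comparison and class, 5.45% had an unadjusted p under 0.05. Within batches 1, 2 and 3 the difference was -24.4, -21.5 and -20.9 CPM, with 1 stress RE mouse in batch 1. Stress RE minus control RE was -0.49 (SE 0.29, adjusted p = 1.00) and control RE minus NP -0.15 (SE 0.29, adjusted p = 0.997). In batches 2 and 3 the former was -16.4 and -15.9 CPM and the latter -5.15 and -5.05 CPM.

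In Sst interneurons Crhbp was more variable. NP mice had 12.0 CPM at the lowest, 52.4 at the median and 82.4 at the highest, control RE mice 110, 40.4, 38.4 and 36.4 CPM, and stress RE mice 117, 96.4, 77.3, 31.5 and 26.9 CPM. The groups overlapped, and each held mice both under 41 and above 80 CPM. Log2 fold changes were 0.20 (SE 0.44, edgeR adjusted p = 0.981) for control RE minus NP, 0.20 (SE 0.43, adjusted p = 1.00) for stress RE minus control RE and 0.40 (SE 0.41, adjusted p = 0.931) for stress RE minus NP. Control RE minus NP was 46.9 CPM within batch 2 and -32.7 CPM within batch 3, while stress RE differed from control RE by -21.2 and 34.6 CPM. The stress RE minus NP difference was 38.02, 25.7 and 1.86 CPM in batches 1, 2 and 3. Subcluster 16 made up 4.35 to 38.5% of Sst nuclei in NP, 15.0 to 47.1% in control RE and 9.30 to 48.1% in stress RE mice. The part of this mix in the level was not tested.

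None of the 4 genes was called between groups in any named class. Crhr1 passed the low-count filter in 8 named classes, Crhr2 in 3, Crhbp in 2 and Crh in none, which gave 12 tests for control RE minus NP, 12 for stress RE minus control RE and 13 for stress RE minus NP. At an adjusted p under 0.05 (edgeR quasi-likelihood test) 0 of 12, 0 of 12 and 0 of 13 were called, where the share of all genes called over all the named classes tested (24, 26 and 26), a wider set than the 12 in which the 4 genes passed the filter, was 0.000474%, 0.00133% and 0.0%. At an unadjusted p under 0.05 the counts were 0, 0 and 1, and the shares of all genes over that wider set 3.22%, 2.95% and 3.88%. The smallest adjusted p of any of the 4 genes in any fit across all genes, DESeq2 included, was 0.367. Fold changes ran from -0.64 to 0.65 on the log2 scale, the highest being Crhr1 in oligodendrocytes for control RE minus NP (0.65, SE 0.47), at 2.00 against 1.29 CPM. Oligodendrocytes are the class given above as background for shares. They held 126 Crhr1 UMIs over 15 mice, and free RNA was not subtracted. A missed threshold does not show that the groups were alike: SEs of 0.17 to 0.73 leave room for changes of moderate size.

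**Figure D5:**
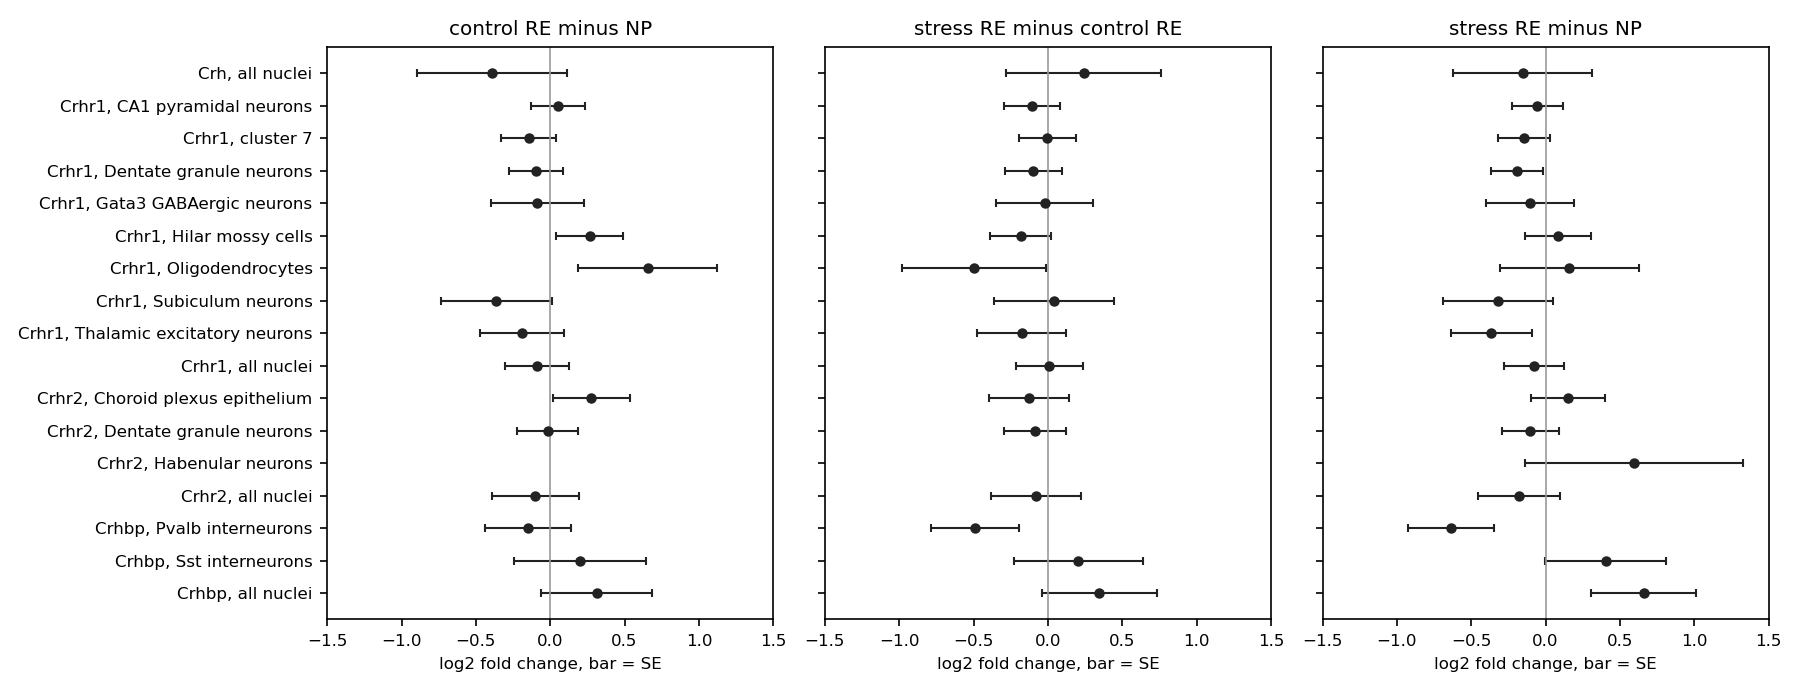
Log2 fold change (point) and its standard error (bar) of each gene in each named class where it passed the low-count filter and over all nuclei, for the 3 comparisons. The largest drop is Crhbp in Pvalb interneurons for stress RE minus NP (-0.64).

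Over all nuclei of the punch the levels followed both the cells present and the RNA per cell, which cannot be told apart in a sum. Crh had 0.234 CPM ± 0.123, Crhr1 12.7 CPM ± 3.08, Crhr2 1.66 CPM ± 0.526 and Crhbp 1.42 CPM ± 0.662 (n = 15). The edgeR test called none of the 12 differences, while the share of all 21165 genes called was 0.00472% for control RE minus NP and 0.0% for both others. The most distant was Crhbp for stress RE minus NP, at 0.66 (SE 0.35, unadjusted p = 0.0795, adjusted p = 0.999), with 1.76 CPM ± 0.901 in stress RE, 1.37 CPM ± 0.595 in control RE and 1.17 CPM ± 0.415 in NP. Stress RE mice had 2.68, 2.59, 1.84, 0.924 and 0.758 CPM, which overlapped NP at 0.660 to 1.88 CPM. The difference within batches 1, 2 and 3 was 1.07, 0.949 and 0.164 CPM. Sst interneurons made up 0.601% ± 0.262 of nuclei in stress RE, 0.446% ± 0.143 in control RE and 0.361% ± 0.0882 in NP mice, and Pvalb interneurons 0.407% ± 0.194, 0.431% ± 0.138 and 0.259% ± 0.0846. Their part in the sum was not tested.

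The other fold changes over all nuclei were smaller than their SE. For Crh they were -0.39 (SE 0.50) for control RE minus NP, 0.24 (SE 0.52) for stress RE minus control RE and -0.15 (SE 0.47) for stress RE minus NP. For Crhr2 they were -0.10 (SE 0.29), -0.08 (SE 0.30) and -0.18 (SE 0.27) in the same order. Choroid plexus nuclei made up 0.0366 to 1.71% of nuclei over the 15 mice.

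A list of 43 further genes of the pathway covered the urocortin ligands, peptide processing and release, G proteins and receptor desensitisation, cyclic AMP and calcium signalling, and transcription factors with the corticosteroid receptors. In 7 classes, the 2 highest for each gene among those that could be tested in all 3 comparisons, 26 to 40 of the 43 passed the filter, and 0 of 717 tests over 21 class comparisons were called in either direction by edgeR. At an unadjusted p under 0.05 the list had 36 tests, 5.02%, where all genes of the same comparisons had 3.07%. The median log2 fold change of the list lay between -0.14 and 0.09, and that of all genes between -0.02 and 0.01.

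The urocortins, the other ligands of these receptors, had few UMIs. Over all nuclei Ucn had 7 UMIs, Ucn2 had 83 (0.0892 CPM ± 0.0644, n = 15) and Ucn3 had 1, against 217 of Crh. Ucn, Ucn2 and Ucn3 had no UMI in Vip or Pvalb interneurons or in choroid plexus epithelium. Dentate granule neurons held 25 of the Ucn2 UMIs, and the highest class mean of Ucn2 was in pericytes and smooth muscle, at 1.33 CPM ± 3.54 from 2 UMIs.

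In Vip interneurons Cadps, a factor that primes dense-core vesicles, had 1192 CPM ± 130 and its relative Cadps2 had 627 CPM ± 191. Neither was highest there: Cadps had 1943 CPM ± 163 in Pvalb interneurons, 1860 CPM ± 126 in hilar mossy cells and 1801 CPM ± 154 in Sst interneurons, and Cadps2 had 1015 CPM ± 161 in subiculum neurons. In hilar mossy cells, downstream of Crhr1, the G protein subunits Gnaq and Gnas had 439 CPM ± 39.7 and 192 CPM ± 39.1, and Plcb1, a phospholipase activated by Gq, had 1683 CPM ± 114. Gnaq was higher in dentate granule neurons (486 CPM ± 15.6) and Gnas in Vip interneurons (345 CPM ± 75.9). Plcb1 was higher in Sst interneurons (1830 CPM ± 248). Choroid plexus epithelium had Rapgef4, a cyclic AMP sensor, at 580 CPM ± 89.6, and Nr3c2, the mineralocorticoid receptor, at 482 CPM ± 81.1. Both were higher elsewhere, Rapgef4 in Pvalb interneurons (741 CPM ± 81.7) and Nr3c2 in dentate granule neurons (1426 CPM ± 120). These levels are CPM of nuclear RNA and are not corrected for gene length.

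The genes whose mean level over the 29 classes was most like each of the 4 were found by Pearson's r of log2(CPM + 1) among 14694 genes, as a description over classes that share libraries. For Crh they were Grpr (r = 0.93), Vip (0.90), Qrfpr (0.86), Gm39185 (0.84) and Npas1 (0.80), each highest in Vip interneurons. For Crhbp they were Gna14 (r = 0.90), Cort (0.86), Alkal2 (0.81), Gm35725 (0.79) and Mypn (0.76), highest in Sst or Pvalb interneurons. For Crhr2 they were Gm50011, Cdh3, Gm36879, Marveld3 and Defb9 (r = 0.90 to 0.93), each highest in choroid plexus. For Crhr1, with its broad pattern, they were Slc6a7, Lingo1, Unc80, Osbpl6 and Rfx1 (r = 0.81 to 0.86).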

How the data were processed

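snRNA-seq libraries (10x 3′ v3.1) of 15 mice were used, grouped by their labels. For each mouse the authors deposited UMI counts per barcode, made with Cell Ranger (7.1.0 per the methods and the submitters' processing notes, 7.0.0 in the file headers) against mm10 (GRCm38). The tables are raw, so free RNA has not been subtracted and can place UMIs of a gene in nuclei that do not express it.

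A barcode was dropped below 200 detected genes or above 5% mitochondrial UMIs, and Scrublet removed the highest-scoring 0.8% of barcodes per 1000 barcodes. Clusters came from scanpy 1.11.5 and igraph 0.11.9 (Leiden resolution 1 on a graph of 15 neighbours over 30 components of 2000 variable genes, the 4 members excluded), with no integration of libraries. GABAergic nuclei were clustered again. A name needed at least 3 detected markers. The naming thresholds were chosen with the clusters in view.

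Counts were summed per mouse and class (at least 10 nuclei) and tested where each group had at least 3 mice, all 3 groups in 1 fit, by edgeR 4.0.16 (filterByExpr, TMM, quasi-likelihood, Benjamini-Hochberg over all genes) in R 4.3.3, with a threshold of 0.05. The SE of an edgeR fold change was derived from the test, as the absolute log2 fold change over the square root of the F statistic. DESeq2 1.42.0, RLE scaling, no filter, batch as a term and leaving out each mouse were alternatives. Where a gene failed the filter in a class it led, CPM were compared by an exact permutation test over mice. The edgeR steps were also run on simulated counts without batch differences, for control RE minus NP alone. Those runs cannot show how the test behaves with the batches of these data. Intervals are Wilson intervals at 95%, the limit for a count of 0 is 3 counts, and both cover counting error only. Gene positions come from GENCODE vM21. Genes named are the 4 members, all ligands of the pathway list, the 2 highest genes of its other roles in a class described, and the 5 genes most like each member. The members and lists were chosen with earlier results of these data known.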

Additional observations from a re-analysis of the deposited data

Results flagged for a closer look

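Of 35 sets of 4 to 6 mice (each gene over all nuclei and in its 2 highest classes of those testable in all 3 comparisons, by group), 5 held a mouse far from the others by Dixon's test at 95%, which flags about 5% of sets by chance. In Sst interneurons, control RE mouse 72 had 110 CPM of Crhbp (95 UMIs in 55 nuclei), and the nearest control RE mouse had 40.4 CPM. NP mouse 31 had 74.4 CPM of Crhr1 in subiculum neurons, against 25.7 CPM in the nearest NP mouse. Over all nuclei, stress RE mouse 77 had 0.408 CPM of Crh (26 UMIs) against 0.230 CPM. Crhr1 over all nuclei was 14.9 CPM in control RE mouse 87 against 11.3 CPM, and 17.5 CPM in stress RE mouse 70 against 11.4 CPM. The last is the only stress RE mouse of batch 1.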

How the results depend on the processing

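Of 132 refits of 36 fold changes (DESeq2, RLE scaling, no low-count filter, batch as a term), 10 changed sign and 0 changed a call. By DESeq2 Crh in Sst interneurons for stress RE minus control RE was -0.047, and without the filter -0.32. With batch as a term, stress RE minus control RE became -0.16 for Crhr1 in subiculum neurons, -0.15 for Crhr1 over all nuclei and 0.0049 for Crhr2 over all nuclei. Stress RE minus NP became -0.0098 for Crhr2 in choroid plexus, and control RE minus NP became 0.071 for Crhr2 in granule neurons and 0.15 for Crhr1 over all nuclei. Crhr1 over all nuclei, stress RE minus control RE, was -0.0086 by DESeq2 and -0.0098 by RLE scaling. Causes were not tested. Without thinning, shares of nuclei with a UMI were 15.98% (Crh, Vip), 3.42% (Crh, Sst), 33.5% (Crhbp, Sst), 33.8% (Crhbp, Pvalb), 46.8% (Crhr1, mossy), 22.3% (Crhr1, subiculum), 42.7% (Crhr2, choroid plexus) and 2.50% (Crhr2, granule).

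Leaving out each mouse in turn changed the sign in 50 of 492 fits. The edgeR fits among these include those that left out a mouse of the group not compared. For control RE minus NP, values ran from -2.55 to -0.81 for Crh in Vip, the lowest without control RE mouse 72, the highest of its group. They ran from -2.12 to 0.50 for Crh in Sst, from -0.43 to 0.36 for Crhbp in Sst, from -0.52 to 0.022 for Crhr1 in subiculum and from -0.18 to 0.091 for Crhr2 in granule neurons. Over all nuclei they ran from -0.21 to 0.061 for Crhr1 and from -0.27 to 0.045 for Crhr2. For stress RE minus control RE they ran from -0.29 to 1.56 for Crh in Vip, -0.81 to 2.29 for Crh in Sst, -0.0069 to 0.83 for Crhbp in Sst, -0.13 to 0.29 for Crhr1 in subiculum, -0.26 to 0.10 for Crhr2 in choroid plexus and -0.18 to 0.080 for Crhr2 in granule neurons. Over all nuclei they ran from -0.083 to 0.62 for Crh, -0.18 to 0.13 for Crhr1 and -0.22 to 0.087 for Crhr2. For stress RE minus NP they ran from -0.73 to 0.57 for Crh in Sst, -0.0060 to 0.22 for Crhr1 in mossy cells, -0.50 to 0.063 for Crhr1 in subiculum and -0.19 to 0.0063 for Crhr2 in granule neurons, and over all nuclei from -0.45 to 0.068 for Crh and -0.27 to 0.058 for Crhr1. Other values kept their sign but moved by over 1.5 times. In Pvalb interneurons Crhbp ran from -0.35 (without control RE mouse 66) to -0.024 (without NP mouse 73) for control RE minus NP, and from -0.76 (without stress RE mouse 43) to -0.29 (without control RE mouse 66) for stress RE minus control RE. In Sst interneurons Crhbp for stress RE minus NP ran from 0.19 (without NP mouse 63) to 0.60 (without stress RE mouse 43). Over all nuclei Crhbp ran from 0.050 (without control RE mouse 72) to 0.50 (without control RE mouse 87) for control RE minus NP and from 0.13 (without stress RE mouse 70) to 0.61 (without control RE mouse 72) for stress RE minus control RE. Over all nuclei Crh for control RE minus NP ran from -0.77 (without control RE mouse 66) to -0.069 (without control RE mouse 87), and Crhr2 for stress RE minus NP from -0.31 (without NP mouse 27) to -0.057 (without NP mouse 73). Stress RE minus NP for Crh in Vip ran from -1.51 (without stress RE mouse 75) to -0.66 (without stress RE mouse 43), and stress RE minus control RE for Crhr1 in mossy cells from -0.27 (without stress RE mouse 70) to -0.12 (without stress RE mouse 75). The choroid plexus ranges of Crhr2 stand with its values.

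Batch as a term and RLE scaling gave no value for Crh in Vip or Sst interneurons, where the gene failed the filter. No paired analysis was possible because the labels give no replicate numbers; those used here only name mice, and the labelled batch, with 2 mice of each group in batches 2 and 3, entered as a term. Sparse counts limit Crh most, with 84 UMIs in Vip nuclei over 15 mice.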

Other observations

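Several clusters that no marker list named had more Crhr1 than any named class, as values without a test. Cluster 19 (1974 nuclei, led by the transcription factors Ebf1, Ebf2 and Tfap2d) had 56.5 CPM ± 11.8 over 15 mice and held 9.88% of all Crhr1 UMIs. Among the GABAergic subclusters, number 6 (87 nuclei, led by Ebf2 and Bnc2) had 86.98 CPM ± 4.40 over 3 mice, number 13 (178 nuclei, led by B230323A14Rik and Tfap2b) had 58.7 CPM ± 25.5 over 8 mice, and number 2 (469 nuclei) had 43.5 CPM ± 9.00 over 7 mice. The word GABAergic comes from the parent clusters and was not scored for each subcluster. Unnamed subcluster 0, led by Bnc2 and Ebf3, had Slc17a6, a marker on the thalamic and habenular lists, among its 10 leading genes. In cluster 19 the NP mean was 61.7 CPM ± 12.1, that of control RE 49.2 CPM ± 8.40 and that of stress RE 56.2 CPM ± 12.4. The 3 mice of batch 1 had a mean of 73.6 CPM there, against 52.3 CPM in the 12 mice of batches 2 and 3. Batch 1 held 2 NP mice and no control RE mouse, and its part in the group means was not tested. Control RE minus NP was -0.28 on the log2 scale (SE 0.17, edgeR adjusted p = 1.00).

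Crhr1 differed between the subclusters of striatal projection neurons (1925 nuclei, with 10 or more in 8 of 15 mice). Subcluster 27 (70 nuclei) had 37.5 CPM ± 21.6 over 3 mice, subcluster 26 (829 nuclei) had 6.22 CPM ± 2.81 and subcluster 25 (1026 nuclei) had 1.20 CPM ± 1.43, each of these over 8 mice.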
